A study of Homo sapiens with 6 samples.

Results

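Double-stranded RNA sensing was followed in human umbilical vein endothelial cells (HUVECs) through 10 genes, chosen by name from the 45372 genes listed for each library. They are the receptors TLR3, RIGI (also written DDX58), IFIH1 and DHX58, the adaptors TICAM1 and MAVS, the signalling proteins TRAF3, TBK1 and IRF3, and the kinase gene EIF2AK2. The cells, wild type by label, were transfected by lipid with a miR-409-3p mimic in 3 libraries and with a non-specific control RNA in the other 3, each RNA at 50 nM. The labels give a time of 48 h, and every title also calls the cells not treated without naming a treatment. Both groups therefore carried a transfected RNA, no library without transfected RNA was analysed here, and the comparison is between the mimic and another RNA of the same dose. The cells were a commercial primary stock used after 3 passages. Each RNA was a pool of technical replicates, and the labels call the 3 libraries of a group biological replicates without saying whether they came from separate cultures or donors, so p-values measure the spread between these libraries.

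Double-stranded RNA is a sign of viral replication that cells read in separate compartments. In endosomes, TLR3 binds it and signals through TICAM1 (also called TRIF), the adaptor that TLR4 uses as well. In the cytosol, RIGI and IFIH1 (MDA5) bind it and signal through MAVS on the mitochondrial membrane, and DHX58 (LGP2) modulates both. The arms meet at TRAF3 and TBK1, which phosphorylates IRF3 so that it switches on interferon genes, whereas EIF2AK2 (PKR) binds double-stranded RNA and halts translation by phosphorylating the initiation factor eIF2. Endothelial cells express these sensors and lie between the blood and the tissue.

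The transfected RNA and its possible pairing sites come first, because a microRNA commonly acts through matches to its seed, bases 2 to 8. The mature strand that the mimic is named for is 22 nt long in RefSeq (GRCh38.p14, plus strand, chr14:101065346-101065367), shown with the seed in capitals.
hsa-miR-409-3p: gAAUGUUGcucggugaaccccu
The seed pairs with CAACATT, and its 6-base core is AACATT. The longest annotated 3′ UTR of each of the 10 genes (GENCODE 29, GRCh38) was searched for the core. A site is a 7mer-m8 when the core is preceded by C, a 7mer-A1 when it is followed by A and an 8mer when both hold. MAVS, EIF2AK2 and IFIH1 were the genes with a site longer than the core, and these 4 sites are shown with the matched bases in capitals. The IFIH1 site lies only in the UTR of a short transcript with 663 coding bases: the full-length transcripts, with 3075 coding bases, have a UTR of 121 nt that holds 1 core match and 0 longer sites. EIF2AK2 likewise has a transcript with a shorter UTR, of 2130 nt, that holds 0 longer sites.
MAVS, 8mer, plus strand, chr20:3870722-3870745: cttcctttgagCAACATTAtttat
EIF2AK2, 7mer-m8, minus strand, chr2:37101747-37101770: aaatctagatcCAACATTgcattt
EIF2AK2, 7mer-A1, minus strand, chr2:37104863-37104886: gtggaacaccctAACATTAtgccc
IFIH1, 7mer-A1, minus strand, chr2:162310471-162310494: tcaagattatgtAACATTAaatat
Such a site of 7 or 8 bases was present in 22.8% of 11855 tested coding genes. TBK1, TLR3 and TRAF3 held only 6-base matches, 2, 3 and 1 of them. TICAM1, RIGI, DHX58 and IRF3 held 0 matches, in 3′ UTRs of 307, 1417, 357 and 78 nt.

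Of the 10 genes, TICAM1 was the 1 that passed the test, and it was lower with the mimic. The files give TPM, reads per gene length, with the sum made equal across libraries, and limma was run on log2(TPM + 1) for the 13680 genes that reached 1 TPM in 3 or more libraries, all 10 among them. Across all tested genes 0.431% passed an adjusted p of 0.05, and 0.300% passed in the lower direction. TICAM1 measured 14.9, 13.9 and 16.5 TPM in mimic libraries 1 to 3, against 22.6, 24.3 and 23.6 TPM in control libraries 1 to 3. The highest mimic library lay well below the lowest control library. The means were 15.1 ± 1.29 TPM in mimic cells and 23.5 ± 0.858 TPM in control cells (SD, n = 3 each), a ratio of 0.642. TICAM1 fell by limma (Benjamini-Hochberg adjusted p = 0.0160 over all tested genes, rank 23 by p), with a log2 fold change of -0.61, an SE of 0.08 and a 95% interval of -0.78 to -0.44.

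**Figure D1:**
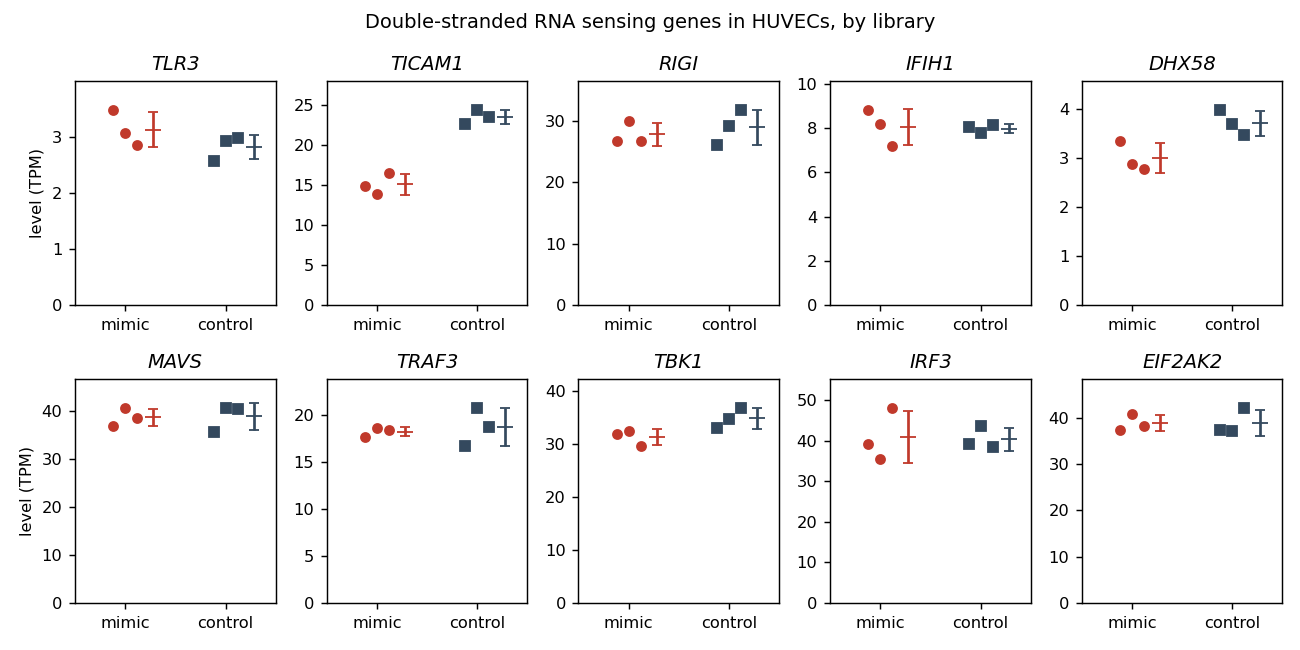
Level in TPM (vertical axis from 0) of each of the 10 genes in the 3 mimic libraries (red circles, left) and the 3 control libraries (dark squares, right), in the order 1 to 3; the bar beside each set is the mean ± SD. TICAM1 is at 13.9 to 16.5 TPM with the mimic and at 22.6 to 24.3 TPM with the control, while 7 of the other genes overlap between the groups.

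The reads behind TICAM1 could be recovered from the TPM values. Low genes lay on whole multiples of the value of 1 read over the annotated exon length, and on that scale TICAM1 came out at 324, 331 and 333 reads in the mimic libraries, against 502, 531 and 546 reads in the control libraries, each within 0.1 of a whole number. Counting error is then 5.56% at 324 reads and 4.28% at 546 reads, smaller than the difference between the groups. It covers counting only, since the labels mention no molecular identifiers. TICAM1 (ENSG00000127666) lies on the minus strand of chromosome 19 at chr19:4815932-4831704 in GRCh38, with 2676 exonic bases in 2 exons, and GENCODE 29 places no other gene's exon over them.

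The TICAM1 call was not kept under every setting, although its direction was. The log2 fold change ran from -0.67 to -0.56 over 16 other settings, and the adjusted p was under 0.05 in 9 of them. By limma it was 0.0802 when mimic library 1 was dropped, and 0.0749, 0.0913 and 0.0899 when control library 1, 2 or 3 was. Leaving out mimic library 2 or 3 gave 0.0329 or 0.00920.

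**Figure D2:**
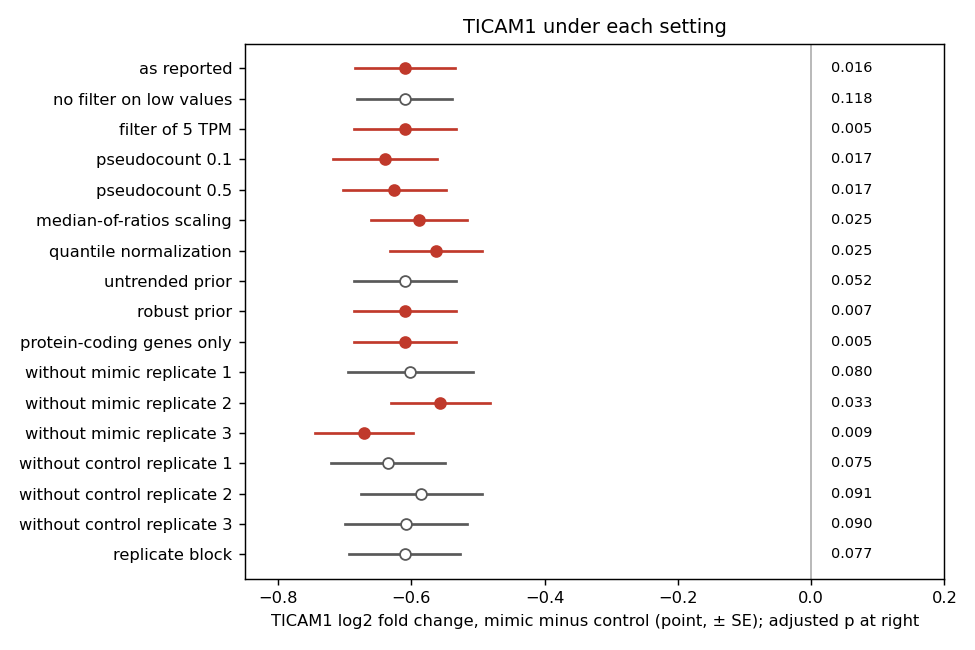
Log2 fold change of TICAM1, mimic minus control (horizontal axis, point and ± SE), as reported and under 16 other settings (rows), with the adjusted p at the right; filled red points have an adjusted p under 0.05 and open grey points do not. All points lie between -0.67 and -0.56, and the adjusted p runs from 0.00517 to 0.118.

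TLR3, the endosomal receptor upstream of TICAM1, had the lowest mean of the 10 genes. It measured 3.47, 3.06 and 2.86 TPM in mimic libraries, against 2.57, 2.92 and 2.97 TPM in control libraries. The groups overlapped, and these levels rested on 143 to 190 reads. The log2 fold change was 0.11 (SE 0.12, 95% interval -0.15 to 0.38; adjusted p = 0.866 by limma). The level of the adaptor set against its receptor, the ratio of TICAM1 to TLR3 in TPM, was 4.28, 4.54 and 5.77 in mimic libraries and 8.82, 8.34 and 7.93 in control libraries. The 2 sets of ratios did not overlap, with the mimic libraries below the control libraries. This repeats the difference in TICAM1 given above and is not a separate result.

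The cytosolic receptors did not pass the test. RIGI, which recognises short RNA ends with a triphosphate, measured 26.8, 29.9 and 26.6 TPM in mimic libraries, against 26.0, 29.1 and 31.7 TPM in control libraries (log2 fold change -0.05, SE 0.08). IFIH1, which recognises long duplexes, measured 8.81, 8.17 and 7.18 TPM in mimic libraries, against 8.03, 7.76 and 8.14 TPM in control libraries (log2 fold change 0.01, SE 0.09). Both genes overlapped between the groups. DHX58, a helicase without the signalling domains of the other receptors, measured 3.34, 2.88 and 2.77 TPM in mimic libraries, against 3.98, 3.69 and 3.47 TPM in control libraries. The DHX58 groups did not overlap, with the mimic libraries lower, but its log2 fold change of -0.24 (SE 0.11, 95% interval -0.49 to 0.02) had an adjusted p of 0.504 by limma with Benjamini-Hochberg. An estimated 80 to 127 reads per library lie behind it, which did not fall on whole numbers, and the counting error is 11.1% at the lowest of them. RIGI held 68.8%, 73.0% and 72.8% of the summed TPM of the 3 receptors in mimic libraries, against 68.4%, 71.8% and 73.2% in control libraries.

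MAVS, the mitochondrial adaptor, overlapped between the groups. It measured 37.0, 40.7 and 38.6 TPM in mimic libraries, against 35.8, 40.7 and 40.5 TPM in control libraries, from 3433 to 4257 reads. Its log2 fold change was -0.0066 (SE 0.07) with a 95% interval of -0.17 to 0.15. MAVS is the gene with the 8mer shown above. Set against this adaptor of the cytosolic arm, TICAM1 stood at 0.402, 0.342 and 0.427 of the MAVS level in mimic libraries, against 0.633, 0.598 and 0.581 in control libraries. The highest ratio with the mimic was below the lowest with the control, which again repeats the difference in TICAM1.

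Where the arms meet, TBK1, the kinase gene, measured 31.8, 32.4 and 29.7 TPM in mimic libraries, against 32.9, 34.8 and 36.8 TPM in control libraries. The mimic libraries lay below the control libraries, but the log2 fold change of -0.15 (SE 0.07) had an adjusted p of 0.468 by limma with Benjamini-Hochberg. TRAF3, the ubiquitin ligase that links both adaptors to TBK1, measured 17.7, 18.6 and 18.4 TPM in mimic libraries and 16.8, 20.8 and 18.8 TPM in control libraries (log2 fold change -0.03, SE 0.08). IRF3, the transcription factor that TBK1 phosphorylates, measured 39.3, 35.6 and 48.1 TPM in mimic libraries and 39.1, 43.5 and 38.3 TPM in control libraries (log2 fold change 0.01, SE 0.11). Both overlapped between the groups. Mimic library 3 was the highest of all libraries for IRF3 and mimic library 2 the lowest, and without mimic library 3 the log2 fold change was -0.10.

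EIF2AK2, which encodes PKR, measured 37.5, 40.9 and 38.3 TPM in mimic libraries, against 37.5, 37.1 and 42.2 TPM in control libraries. The groups overlapped, and the log2 fold change was -3.89e-04 (SE 0.07, 95% interval -0.16 to 0.16) from 3108 to 3928 reads. EIF2AK2, IRF3 and TBK1 share exonic bases with genes annotated on the opposite strand, BCL2L12 over 734 bases of IRF3 among them. Whether strand was used in counting is not given in the sources used here, so these 3 genes may share reads with their neighbours.

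**Figure D3:**
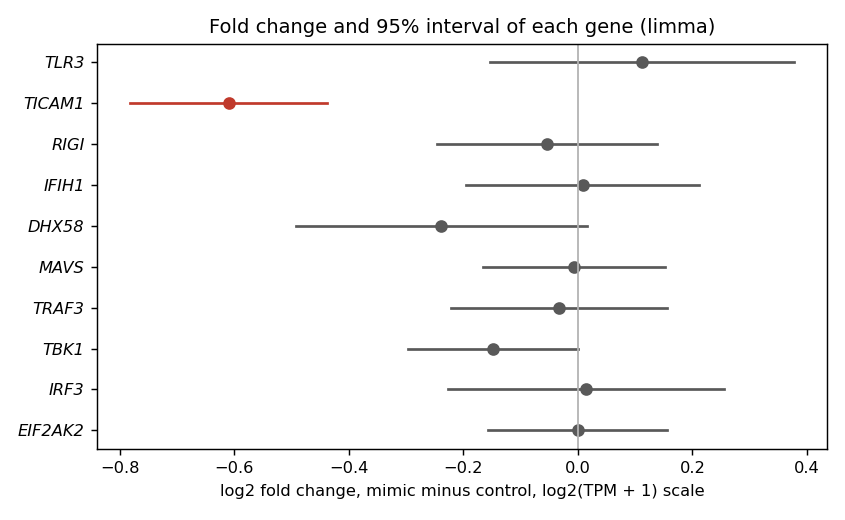
Log2 fold change of each gene, mimic minus control, from values of log2(TPM + 1) (horizontal axis; point and 95% interval from limma), with the gene past an adjusted p of 0.05 in red and the others in grey. TICAM1 is at -0.61 with an interval of -0.78 to -0.44, and the intervals of the other 9 genes include 0.

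Over the 10 genes, 1 had an unadjusted p under 0.05, against 10.7% of all tested genes, a similar share. DHX58, TBK1 and TICAM1 had no overlap between the groups, all with the mimic lower: 3 of 10, against 15.7% of all tested genes in either direction and 10.5% in the lower direction. The log2 fold change was below 0 for 7 of 10, against 56.6% of all, and the median was -0.02, as it was over all tested genes (-0.0166). For the 9 genes other than TICAM1 the log2 fold changes ran from -0.24 to 0.11 and the adjusted p by limma from 0.468 to 0.9997. The outermost 95% bounds among them were -0.49 (DHX58) and 0.38 (TLR3), or 0.711 and 1.30 times the control value of TPM + 1. In TPM itself the bounds of these low genes are wider. With a pseudocount of 0.1 the log2 fold change of DHX58 was -0.30 and that of TLR3 was 0.14.

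The levels themselves spanned more than 10-fold. TPM is per length, so genes can be set side by side, but only roughly where the annotated exons are longer than the transcripts expressed. Over the 6 libraries IRF3 (40.6 TPM), EIF2AK2 (38.9), MAVS (38.9), TBK1 (33.1) and RIGI (28.3) were the highest. TICAM1 (19.3 TPM) and TRAF3 (18.5) followed, then IFIH1 (8.01), DHX58 (3.36) and TLR3 (2.97). The ranges over libraries of IRF3, EIF2AK2 and MAVS overlapped, and these neighbours changed order between libraries. The ranges of MAVS and TBK1 and of TBK1 and RIGI also overlapped, although MAVS was above TBK1, and TBK1 above RIGI, in 6 of 6 libraries. TICAM1 was below TRAF3 in the 3 mimic libraries and above it in the 3 control libraries, and so was DHX58 relative to TLR3, with overlapping ranges for both pairs. TICAM1 had the widest range of the 10 genes, 1.75-fold between the lowest and highest library, and EIF2AK2 the narrowest at 1.14-fold.

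The sensors are known to be interferon-inducible, and such genes often carry an interferon-stimulated response element close to their start. The core GAAANNGAAA was searched on both strands of RefSeq promoters (GRCh38.p14, 250 bases before to 50 after the start). It was present in 3.65% of 27305 promoters and in 12 of 15 promoters of the interferon output genes described below. Of the 10 genes 8 had an entry (DHX58 and IRF3 had none), and TLR3, IFIH1 and EIF2AK2 held the core, while TICAM1, RIGI, MAVS, TRAF3 and TBK1 did not. The matches are shown 5′ to 3′ along the gene with the core, or its reverse complement, in capitals, except 1 further match in IFIH1 that overlaps the first.
TLR3, plus strand, chr4:186069142-186069171: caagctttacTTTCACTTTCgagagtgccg
IFIH1, minus strand, chr2:162318824-162318853: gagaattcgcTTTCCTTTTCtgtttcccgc
IFIH1, minus strand, chr2:162318686-162318715: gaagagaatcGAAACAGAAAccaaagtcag
EIF2AK2, minus strand, chr2:37156967-37156996: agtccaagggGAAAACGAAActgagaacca
TLR3, IFIH1 and EIF2AK2, the carriers of the core, had log2 fold changes of 0.11, 0.01 and -3.89e-04, and none of them passed the test. A match is a description of letters in this window only.

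The genes around the 10 were described through 10 lists with 164 genes found in the files, of which 139 were tested. Of these, 138 did not pass. The remaining gene, RN7SL4P, was above the threshold in the higher direction, as were 0.132% of all tested genes, but it reached the filter only through the mimic libraries and was listed for a change already known, so nothing about the lists is read from it. Before adjustment 6 had p under 0.05 in the higher and 10 in the lower direction, against 417 and 1045 of the 13680 tested genes (10.7% in either direction), and the median was -0.01, close to that of all tested genes. Groups without overlap were seen for 24 of the 139, 15 lower and 9 higher with the mimic. Over all tested genes the share was 15.7%, which is similar. The genes named below are mostly those of lowest p in a list, where no overlap is likely.

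Partners of TLR3 and TICAM1 gave 13 tested genes, 0 past the threshold and a median of -0.03. PELI1, a ubiquitin ligase that TICAM1 signalling uses to reach NF-kB, measured 41.1, 45.2 and 33.6 TPM in mimic libraries, against 27.4, 28.9 and 29.5 TPM in control libraries. The groups did not overlap (log2 fold change 0.46, SE 0.10; adjusted p = 0.105 by limma). Without mimic library 3 its adjusted p was 0.0154, and with protein-coding genes only it was 0.0464. RIPK3, a kinase that TICAM1 can engage for necroptosis, was at 5.12 ± 0.280 TPM in mimic cells and 5.88 ± 0.372 TPM in control cells (SD, n = 3 each). The RIPK3 groups did not overlap. WDFY1, reported to bridge TLR3 and TICAM1, was at 88.1 ± 2.96 TPM in mimic cells and 81.9 ± 3.41 TPM in control cells. The escort protein UNC93B1 was among the tested genes that did not pass.

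Regulators of the cytosolic receptors gave 20 tested genes and 0 past the threshold, with a median of 0.03. TRIM4, a ubiquitin ligase of RIG-I, measured 18.5, 18.8 and 19.4 TPM in mimic libraries, against 23.0, 22.6 and 22.1 TPM in control libraries (log2 fold change -0.25, SE 0.06; adjusted p = 0.129 by limma). ZCCHC3, a co-receptor of RIG-I and MDA5, measured 78.8, 75.4 and 77.0 TPM in mimic libraries, against 88.0, 94.1 and 87.8 TPM in control libraries (log2 fold change -0.22, SE 0.05; adjusted p = 0.140 by limma). Neither overlapped between the groups. USP21, a deubiquitinase, had a log2 fold change of -0.21 (SE 0.10) with overlap.

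MAVS partners gave 23 tested genes and 0 past the threshold, with a median of -0.02. The signalling proteins TRAF2 and RIPK1 had log2 fold changes of -0.24 (SE 0.08) and -0.18 (SE 0.06), with no overlap between the groups, and adjusted p of 0.273 and 0.335 by limma. RNF5, a ubiquitin ligase of the endoplasmic reticulum that targets STING and MAVS, was at 0.11 (SE 0.05). The RNF5 groups did not overlap either, with the mimic higher. In the list of the TBK1 complex and IRFs 0 of 19 tested genes passed, with a median of -0.0091. TNFAIP3, which encodes the deubiquitinating inhibitor A20, measured 3.72, 6.09 and 4.48 TPM in mimic libraries, against 2.79, 3.42 and 3.31 TPM in control libraries (log2 fold change 0.45, SE 0.16; adjusted p = 0.334 by limma). The TNFAIP3 groups did not overlap. IRF7, the interferon-inducible relative of IRF3, was at -0.26 (SE 0.10) and the TBK1 adaptor TANK at -0.15 (SE 0.08), both with overlap.

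Around PKR, 0 of 17 tested genes passed, with a median of -0.03. PPP1R15A (GADD34), which directs the removal of the phosphate that PKR places on eIF2, measured 132, 127 and 126 TPM in mimic libraries, against 107, 111 and 105 TPM in control libraries. The groups did not overlap, and the log2 fold change was 0.26 (SE 0.05; adjusted p = 0.0791 by limma). EIF2B4, a subunit of the exchange factor for eIF2, was at -0.20 (SE 0.06), and EIF2AK3 (PERK), the eIF2 kinase of the endoplasmic reticulum, at -0.19 (SE 0.08). Neither of these genes overlapped between the groups. Among 21 tested genes of other double-stranded RNA binding proteins, 0 passed, with a median of -0.04. ZNFX1, a helicase that binds viral RNA, was at -0.23 (SE 0.07), and the oligoadenylate synthetases OAS3 and OAS1 were at -0.16 (SE 0.07) and -0.20 (SE 0.11), with no overlap between the groups for any of the 3.

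**Figure D4:**
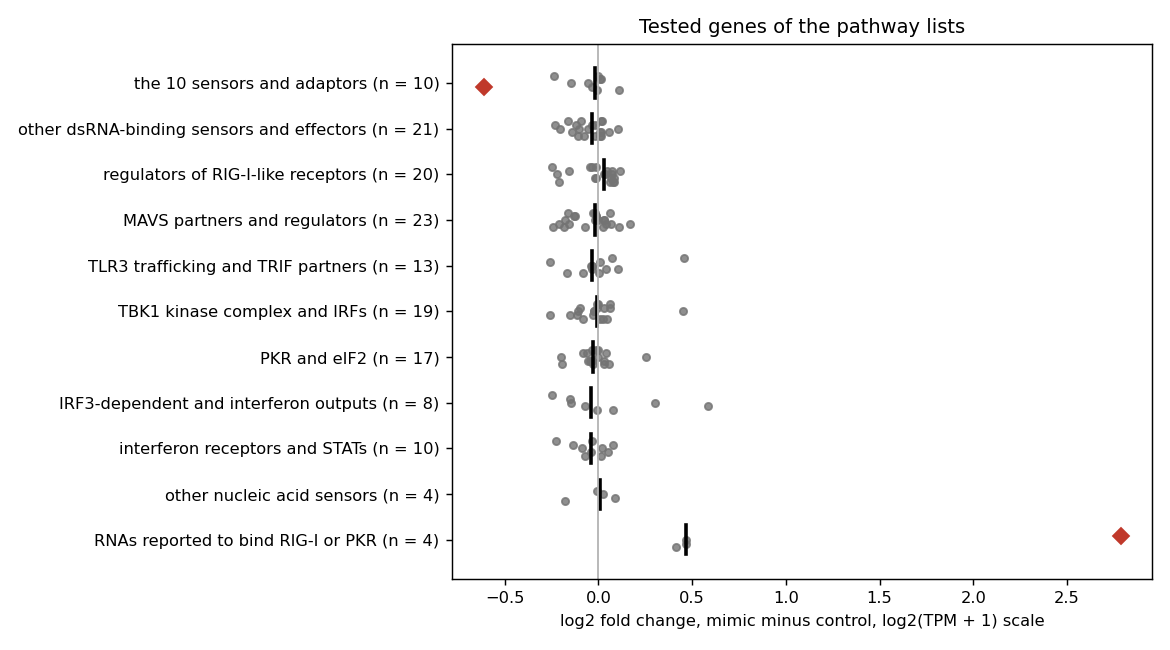
Log2 fold change, mimic minus control (horizontal axis), of every tested gene in the 10 sensors and adaptors (top row) and in the 10 lists around them; points are genes, black bars are medians and red diamonds are genes past an adjusted p of 0.05. TICAM1 at -0.61 and RN7SL4P at 2.79 are the red points, the second from a gene that reached the filter only through the mimic libraries, and the medians of all lists but the last lie between -0.04 and 0.03.

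The output genes differed widely in level. IFNB1, the interferon gene that IRF3 switches on, was listed at 0 in all 6 libraries, as were IFNL1, IFNL2, IFNL3 and IFNA1. CXCL10, CCL5, RSAD2, IFIT1 and IFI44L stayed below 1 TPM in each library, so 10 of the 18 output genes were not tested. Of the 8 tested, 0 passed, with a median of -0.04. The ubiquitin-like modifier ISG15 was at 54.9 ± 13.6 TPM in mimic cells and 60.1 ± 6.76 TPM in control cells, and USP18, a brake on interferon receptor signalling, at 55.2 ± 2.13 TPM in mimic cells and 61.4 ± 3.99 TPM in control cells (SD, n = 3 each). IFI6 averaged 40.0 TPM in mimic cells and 42.1 TPM in control cells, and IFI44 23.9 TPM in mimic cells and 24.0 TPM in control cells. These 4 genes overlapped between the groups. IFIT2, an antiviral RNA-binding protein gene and a direct IRF3 target, measured 2.32, 3.62 and 2.70 TPM in mimic libraries, against 1.33, 1.60 and 1.79 TPM in control libraries (log2 fold change 0.58, SE 0.16; adjusted p = 0.194 by limma). IFIT3 measured 10.6, 10.1 and 8.25 TPM in mimic libraries, against 7.51, 7.93 and 7.33 TPM in control libraries (log2 fold change 0.30, SE 0.10; adjusted p = 0.300 by limma). Neither IFIT gene overlapped between the groups, and both were higher with the mimic, whereas the log2 fold change of USP18 was -0.15 (SE 0.06). The groups of IFI44L, too low to be tested, did not overlap in the other direction. It was listed at 0.432, 0.615 and 0.375 TPM in mimic libraries, against 0.636, 0.851 and 0.902 TPM in control libraries. Among interferon receptors and STATs, 0 of 10 passed, and IRF9, the DNA-binding subunit of the interferon-activated complex ISGF3, was at -0.23 (SE 0.08; adjusted p = 0.314 by limma). The IRF9 groups did not overlap. STAT2 was at -0.14 (SE 0.07) and the receptor chain gene IL10RB at -0.08 (SE 0.06), both with overlap.

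Sensors of other nucleic acids gave 4 tested genes and 0 past the threshold. The DNA sensing adaptor STING1 was at 39.6 ± 2.07 TPM in mimic cells and 37.2 ± 0.971 TPM in control cells (SD, n = 3 each). CGAS, which senses cytosolic DNA, was at 6.97 ± 0.976 TPM in mimic cells and 8.17 ± 2.25 TPM in control cells. IFI16 was at 346 ± 17.9 TPM in mimic cells and 341 ± 9.35 TPM in control cells. The endosomal RNA receptors TLR7 and TLR8 were listed at 0 in all libraries.

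The last list held small RNAs reported to bind RIG-I or PKR, and copies of 7SL, the RNA of the signal recognition particle. RN7SL4P, a 7SL pseudogene, was listed at 3.75, 5.34 and 9.88 TPM in mimic libraries and at 0 in the 3 control libraries. These values are a description. Its place past the threshold is not read as a result, because the gene reached the filter only through the mimic libraries. RN7SL2 measured 2046, 1428 and 2813 TPM in mimic libraries, against 1203, 1397 and 1843 TPM in control libraries. RN7SL1 measured 666, 470 and 737 TPM in mimic libraries, against 382, 444 and 572 TPM in control libraries. Both overlapped between the groups, with log2 fold changes of 0.47 (SE 0.23) and 0.42 (SE 0.18), and RN7SL3 was at 0.47 (SE 0.24). Near-identical copies can share reads, RN7SL4P was on the list because its change was already known, and libraries were made by mRNA enrichment, which does not aim at 7SL RNA. The vault RNAs VTRNA1-1, VTRNA1-2, VTRNA1-3 and VTRNA2-1 were listed at 0 throughout.

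The libraries matched the labelled cell type. All 10 endothelial markers, among them PECAM1, CDH5 and VWF, were above 1 TPM in all libraries and summed to 6064 to 6233 TPM in mimic libraries and 5788 to 6057 TPM in control libraries. The 6 leukocyte markers summed to 17.1 to 19.3 TPM in mimic libraries and 17.3 to 20.3 TPM in control libraries, with PTPRC and CD3E listed at 0. The fibroblast and mural markers summed to 19.5 to 19.8 TPM in mimic libraries and 17.4 to 21.9 TPM in control libraries. The epithelial markers summed to 14.6 to 15.7 TPM in mimic libraries and 13.6 to 16.1 TPM in control libraries, and 0 markers of these cell types passed the test. Some were detected throughout: 1 of 6 leukocyte, 3 of 6 fibroblast and mural and 2 of 4 epithelial markers reached 1 TPM in all libraries. In bulk RNA, fewer cells of a type and less RNA per cell cannot be told apart. Depth, estimated from the value of 1 read, was 29.8 to 35.8 M reads in mimic libraries and 32.3 to 34.8 M reads in control libraries, and correlations between libraries of log2(TPM + 1) were 0.987 to 0.992 within groups and 0.988 to 0.991 between them.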

How the data were processed

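The deposited files hold 1 TPM value per Ensembl gene and library, made by the authors, per the file headers. Per the submitters' processing notes the genome was hg38 (GRCh38.p13). The sources used here do not give the aligner, counter, annotation or use of strand. Symbols were found for 45102 of 45372 IDs and GENCODE 29 types for 43348. The fit was limma 3.58.1 (R 4.3.3) on log2(TPM + 1) with a trended prior, 13680 genes and Benjamini-Hochberg adjustment over all of them at 0.05; it was tested on simulated data. Log2 fold changes are mimic minus control on that scale, which understates low genes. The value of 1 read per library was read from TPM times GENCODE exon length, and 74.7% to 75.6% of genes with up to 20 reads lay within 0.02 of a whole read. For 6 of the 10 genes all 6 libraries lay within 0.1 of a whole read. The members and lists were chosen with earlier results of these data known. All 10 genes are named, with the genes past the threshold in each list and up to 3 of its lowest p; other list genes are named for their level. UTRs under 30 nt were not searched. Alternatives changed the filter, pseudocount, scaling, prior, genes tested, threshold, libraries and replicate block. Python 3.11.15, numpy 2.4.6, pandas 2.3.3 and matplotlib 3.10.9 were used.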

Additional observations from a re-analysis of the deposited data

How the results depend on the processing

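TICAM1 kept its direction in all 16 other settings and passed in 9. Its adjusted p by limma was 0.118 with no filter on low values, 0.0524 with an untrended prior and 0.0749 to 0.0913 without any 1 control library. The count of the 10 genes past the threshold, 1 as reported, was therefore 0 with no filter, an untrended prior or the replicate block, and 0 to 1 when single libraries were left out. Over all genes, 18 higher and 41 lower became 6 and 5 (no filter), 36 and 79 (5 TPM), 10 and 10 (untrended), 37 and 82 (robust), 54 and 122 (coding genes alone) and 58 and 134 (threshold of 0.1). The higher count was 33 with median-of-ratios scaling and 34 with quantile normalization. Leaving out 1 library gave 6 to 22 higher and 6 to 27 lower genes. The 1 pathway gene past the threshold as reported was RN7SL4P, from which nothing is read. The pathway count was 0 with no filter and with 5 TPM, and 0 to 2 without 1 library. It was 2 with protein-coding genes only (PELI1 and PPP1R15A) and 2 at an adjusted p under 0.1 (RN7SL4P and PPP1R15A).

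With the replicate block, which treats equal numbers as pairs, the counts were 9 higher and 5 lower and the adjusted p of TICAM1 was 0.0772. Deviations of same-numbered libraries correlated at 0.0309, -0.0872 and -0.112, which showed no sign of pairing. Not every library correlated best with its own number. With so few libraries per group this check cannot settle whether equal numbers were paired.

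The other 9 genes passed in 0 of 142 values under other settings, and 19 of these had another sign, at most 0.10 in size. With median-of-ratios scaling EIF2AK2 was at 0.0207 and MAVS at 0.0144. With quantile normalization EIF2AK2 was at 0.0186, MAVS at 0.0107 and TRAF3 at 0.0134. These scalings moved the median of all tested genes from -0.0166 to 0.00343 and 0.00346. Leaving out 1 library gave ranges of -0.0363 to 0.0570 for EIF2AK2, -0.0513 to 0.0799 for IFIH1, -0.10 to 0.11 for IRF3, -0.0664 to 0.0253 for MAVS, -0.13 to 0.0120 for RIGI and -0.11 to 0.0389 for TRAF3. The cause of these shifts was not tested. Depth limits DHX58 and TLR3 most, at 80 to 127 and 143 to 190 reads per library.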

Other observations

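TICAM1 also serves TLR4, so the other Toll-like receptors and their adaptors were read in the same fit, as a list of 13 genes chosen after the values of TICAM1 were known. Of its 10 tested genes, 0 passed, and the median log2 fold change was -0.02. TLR4, the receptor for bacterial lipopolysaccharide, measured 19.8, 21.1 and 18.6 TPM in mimic libraries, against 16.1, 17.1 and 18.0 TPM in control libraries. Its groups did not overlap, and its log2 fold change of 0.21 (SE 0.07) had an adjusted p of 0.339 by limma. TLR6 was at 2.22, 2.42 and 2.59 TPM in mimic libraries, against 1.88, 1.81 and 1.70 TPM in control libraries (log2 fold change 0.29, SE 0.12, adjusted p = 0.460 by limma). The TLR6 groups did not overlap either. That made 2 of the 10 tested genes without overlap, against 15.7% of all tested genes, a similar share. MYD88, the adaptor of most other Toll-like receptors, was at 42.5 TPM in mimic cells and 42.7 TPM in control cells on average. TICAM2, which bridges TLR4 to TICAM1, varied widely, at 1.44, 4.13 and 2.25 TPM in mimic libraries and 3.05, 2.31 and 4.20 TPM in control libraries. TLR2, TLR5 and TLR10 stayed below 1 TPM in each library.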
